A study of Mus musculus with 2 samples.

Results

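The 8 genes described here encode proteins of the meiotic chromosome axis and the synaptonemal complex: Sycp1, Sycp2, Sycp3, Smc1b, Hormad1, Hormad2, Rec8 and Stag3. They are a list of names that applies no threshold to measured values, drawn up with earlier results of these data known, and all 8 were among the 17244 genes listed in either count table (15366 were listed in both). Their levels were read in male germ cells of CD1 mouse embryos, an outbred strain, at the embryonic stages E12.5 and E13.5, counted in days. Cells were sorted by FACS for Oct4GFP, a reporter of the germ cell gene Pou5f1, and made into 10x v2 single-cell libraries, 1 per stage. No treatment or mutation is given in the labels for either stage, and the number of embryos behind each library is not stated there. A single library stood for each stage, so no test was possible and a difference between stages cannot be told apart from one between libraries. Every interval below is a 95% exact interval, every limit that a count of 0 allows is taken as 3 counts, and both cover counting error only.

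In meiotic prophase, cohesin rings hold sister chromatids along a protein axis, and the synaptonemal complex joins the axes of homologous chromosomes along their length. SYCP1 forms the transverse filaments, SYCP2 and SYCP3 form the lateral elements, HORMAD1 and HORMAD2 coat axes that have not yet synapsed, and SMC1B, REC8 and STAG3 are the meiotic counterparts of the mitotic cohesin subunits SMC1A, RAD21 and STAG1 or STAG2. Germ cells of the fetal ovary enter meiosis under retinoic acid and STRA8, while those of the fetal testis stop dividing, switch on the male regulator NANOS2 and start meiosis only after birth.

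Germ-like cells, those in clusters that germ cell markers named, numbered 2504 at E12.5 and 2547 at E13.5, or 95.5% and 95.4% of the barcodes that passed the cell filter. They held 59708789 and 58574361 UMIs, molecules counted once by their identifier, with medians of 23466.5 and 21887 UMIs per cell. The 13 germ markers took 7502 and 8386 CPM (UMIs per 1e6 UMIs of the summed germ-like cells), and none was at 0. The 10 Sertoli markers took 13.4 and 14.7 CPM, with none at 0 in either library. The 9 erythroid markers took 0.285 CPM with 6 at 0, and 23.2 CPM with none at 0. The 6 listed endothelial markers took 112 and 46.9 CPM, led by Pecam1 at 77.3 and 25.6 CPM, and the 4 listed mesonephric markers 379 and 309 CPM, of which Epcam gave 379 and 309 CPM. Fetal Leydig, interstitial, macrophage, surface epithelium and mural markers took between 0.335 and 11.7 CPM per list. Whether the germ-like cells themselves made the Pecam1 and Epcam transcripts was not tested. The part of all these listed transcripts in the results was not tested either. Of the barcodes, 24 occurred in both libraries, of which 15 and 18 were germ-like, and leaving them out changed no member's log2 ratio by more than 0.0068.

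All 8 genes are annotated as protein-coding in GRCm38. Chromosome 3 holds both Sycp1 (102818499 to 102936100, minus strand) and Hormad1 (95559677 to 95587671, plus strand). Sycp2 lies on chromosome 2 (178345293 to 178407685, minus strand), Sycp3 on chromosome 10 (88459569 to 88473236, plus strand) and Smc1b on chromosome 15 (85064689 to 85131964, minus strand). Hormad2 lies on chromosome 11 (4345814 to 4441105, minus strand), Rec8 on chromosome 14 (55618037 to 55625395, plus strand) and Stag3 on chromosome 5 (138280240 to 138312393, plus strand). The 3′ end of Sycp3 overlaps Chpt1 on the other strand, and whether the deposited counting used strand is not stated in the sources read here, so reads of the pair may not be fully separated.

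The promoters of the members were searched because several germline genes are held silent in other cells through E-boxes bound by MGA and MAX and through E2F6 sites. Both strands of the 250 bases before the RefSeq start were searched for CACGTG (an E-box), TCCCGC (a core of E2F sites) and CNCCTCAG (a motif described for STRA8). The E-box was found in 4 of 8 members, once in Sycp1 and Stag3 and 2 times in Sycp3 and Hormad1, against 6.02% of 32851 promoters of the same length. The E2F core was found in 4 members, Sycp3, Smc1b, Hormad1 and Rec8, against 16.9% of promoters. CNCCTCAG was found in Hormad2 alone, against 6.42% of promoters. The matches of Stag3 and Rec8 lie inside the annotated gene and that of Hormad2 inside its RefSeq gene, since these windows reach into the gene. The windows held 7 CpG dinucleotides in Sycp2 to 26 in Stag3, against a median of 6 over all promoters. CACGTG and TCCCGC each contain a CpG, so their shares over all promoters are not matched to the members for CpG count. Whether the motifs are more frequent than in promoters of like CpG count was not tested. A match is a description of the letters, not of binding. The 4 sequences below, from the RefSeq annotation of GRCm38.p6, are those of the 2 most abundant members at E13.5, Smc1b and Sycp1, and of Sycp3 and Hormad1, which carried both kinds of motif; each is given 5′ to 3′ on the gene's strand and stops before the annotated gene, and capitals mark CACGTG as well as TCCCGC on either strand.
Sycp1, chr3:102936101-102936350, minus strand: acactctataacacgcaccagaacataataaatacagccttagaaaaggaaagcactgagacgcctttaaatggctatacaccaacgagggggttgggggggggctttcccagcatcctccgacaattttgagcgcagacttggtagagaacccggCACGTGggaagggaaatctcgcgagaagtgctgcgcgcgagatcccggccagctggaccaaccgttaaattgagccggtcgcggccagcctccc
Smc1b, chr15:85131965-85132207, minus strand: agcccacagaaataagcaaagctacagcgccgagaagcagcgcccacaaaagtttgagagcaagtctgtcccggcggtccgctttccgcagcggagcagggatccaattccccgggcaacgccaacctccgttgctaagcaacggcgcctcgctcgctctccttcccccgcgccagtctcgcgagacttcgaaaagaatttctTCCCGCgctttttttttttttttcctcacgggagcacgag
Sycp3, chr10:88459337-88459568, plus strand: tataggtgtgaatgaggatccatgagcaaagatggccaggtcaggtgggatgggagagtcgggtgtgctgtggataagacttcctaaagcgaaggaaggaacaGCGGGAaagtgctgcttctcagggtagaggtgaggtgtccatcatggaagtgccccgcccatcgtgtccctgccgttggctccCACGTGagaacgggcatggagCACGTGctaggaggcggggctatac
Hormad1, chr3:95559427-95559676, plus strand: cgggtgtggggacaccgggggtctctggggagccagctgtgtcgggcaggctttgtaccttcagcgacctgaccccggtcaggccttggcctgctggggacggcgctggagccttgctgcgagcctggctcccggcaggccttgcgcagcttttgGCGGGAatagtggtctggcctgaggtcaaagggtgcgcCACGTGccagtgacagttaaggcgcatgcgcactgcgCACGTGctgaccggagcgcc

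Levels of the 8 genes spanned from 3.77 CPM (Rec8) to 137 CPM (Smc1b) at E12.5, and from 4.87 CPM (Rec8) to 281 CPM (Smc1b) at E13.5. The assay counts 3′ ends, 1 per molecule, so these CPM do not scale with transcript length, although capture may differ between genes. The members' summed level went from 320 to 656 CPM between E12.5 and E13.5, a ratio of 2.05. Smc1b and Sycp1 gave 51.0% of the members' UMIs at E12.5 and 71.0% at E13.5, and the other 6 members together went from 157 to 190 CPM, a ratio of 1.21. At least 1.5-fold, a class of size and not a test, 4 of 8 members were higher in the E13.5 library and 0 were lower, against 18.4% higher and 17.5% lower among the 15159 genes with 3 or more UMIs in each library. The median log2 ratio was 0.62 over the 8 members and 0.0075 over all these genes. Of the 7308 genes that reached 10 CPM in at least 1 library, 8.58% were higher and 9.93% lower. Rec8 stayed under that level, and Sycp2 and Hormad2 passed it only through the E13.5 library, so no count of members is read against these shares.

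Sycp1, the transverse filament gene, had 1571 UMIs or 26.3 CPM (25.0 to 27.6) at E12.5 and 10815 UMIs or 185 CPM (181 to 188) at E13.5. Its ratio exceeded that of 98.7% of the 15159 genes. Sycp2, which encodes the larger lateral element protein, had 381 UMIs or 6.38 CPM (5.76 to 7.06) and 1248 UMIs or 21.3 CPM (20.1 to 22.5), and its ratio exceeded that of 95.9% of genes. Sycp3, the other lateral element gene, was nearly level, with 2947 UMIs or 49.4 CPM (47.6 to 51.2) and then 3394 UMIs or 57.9 CPM (56.0 to 59.9). The ratio of Sycp3 was 1.17 (1.12 to 1.23). The order of the 3 genes thus differed between the libraries: Sycp3 was above Sycp1 at E12.5, and Sycp1 was far above Sycp3 at E13.5.

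Both HORMA domain genes were higher in the E13.5 library, by different amounts. Hormad1 had 2226 UMIs or 37.3 CPM (35.7 to 38.9) and 2781 UMIs or 47.5 CPM (45.7 to 49.3), a ratio of 1.27 (1.20 to 1.35). Hormad2 had 541 UMIs or 9.06 CPM (8.31 to 9.86) and 967 UMIs or 16.5 CPM (15.5 to 17.6), a ratio of 1.82 (1.64 to 2.03). Hormad2 passed the 1.5-fold class and Hormad1 did not.

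The 3 meiotic cohesin genes went apart. Smc1b, the meiotic SMC subunit, was the most abundant member in both libraries, with 8171 UMIs or 137 CPM (134 to 140) and 16464 UMIs or 281 CPM (277 to 285). Its ratio was 2.05. Rec8, the meiotic kleisin that closes the ring, was the lowest member in both, with 225 UMIs or 3.77 CPM (3.29 to 4.29) and 285 UMIs or 4.87 CPM (4.32 to 5.46), a ratio of 1.29 (1.08 to 1.54). With a stricter cell filter of at least 2000 genes and under 5% mitochondrial UMIs, the log2 ratio of Rec8 was 0.05 in place of 0.37. Stag3, the meiotic STAG subunit, was the only member lower at E13.5, with 3044 UMIs or 51.0 CPM (49.2 to 52.8) and 2454 UMIs or 41.9 CPM (40.3 to 43.6), 1.22-fold lower (1.15 to 1.28).

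In order of level, E12.5 read Smc1b, Stag3, Sycp3, Hormad1, Sycp1, Hormad2, Sycp2 and Rec8, and the intervals of Stag3 and Sycp3 overlapped. E13.5 read Smc1b, Sycp1, Sycp3, Hormad1, Stag3, Sycp2, Hormad2 and Rec8, with no overlap between neighbours. Sycp1 moved from the fifth place to the second and Stag3 from the second to the fifth.

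**Figure D1:**
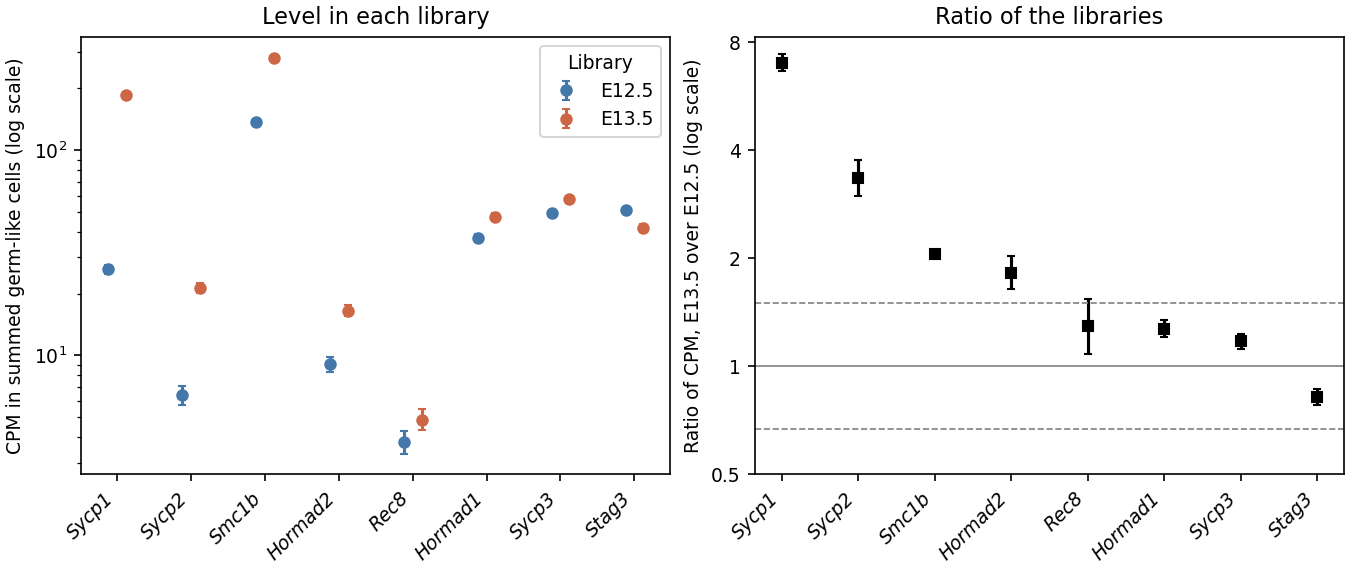
Left, level of each member in the summed germ-like cells of each library in CPM on a log axis, with exact Poisson 95% intervals; right, ratio of E13.5 over E12.5 on a log axis with exact conditional binomial 95% intervals and dashed lines at 1.5-fold. Sycp1, Sycp2, Smc1b and Hormad2 lie above the upper line and Stag3 is the only member below 1.

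The mitotic counterparts showed what share of each subunit the meiotic form made up. Smc1b gave 47.0% (46.3 to 47.8%) of the UMIs of Smc1b and Smc1a at E12.5 and 64.4% (63.8 to 64.9%) at E13.5, while Smc1a itself was at 154 and 156 CPM. Rec8 gave 2.31% (2.02 to 2.63%) of the UMIs of Rec8 and Rad21 at E12.5 and 4.06% (3.61 to 4.54%) at E13.5, where Rad21, the mitotic kleisin, was at 159 and 115 CPM. Stag3 gave 32.6% (31.6 to 33.6%) of the UMIs of the 3 STAG genes at E12.5 and 27.98% (27.04 to 28.93%) at E13.5. Stag1 was at 92.5 and 86.7 CPM and Stag2 at 12.9 and 21.1 CPM. Smc3, the partner shared by mitotic and meiotic rings, was at 552 and 467 CPM. Of the Smc1b and Smc1a transcripts, most were thus meiotic in kind at E13.5, and those of the kleisin were nearly all mitotic in both libraries. Over all 15159 genes with 3 or more UMIs in each library, 18.4% were at least 1.5-fold higher at E13.5 and 17.5% lower. Of the 14 mitotic cohesin genes with a ratio, 2 were that much higher, 1 was lower and 11 lay between, with a median log2 ratio of -0.079. The higher pair was Stag2 and Hdac8, the SMC3 deacetylase (2.14 and 4.95 CPM), and the lower gene was Pds5a, a cohesin regulator (69.8 and 45.2 CPM).

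For shares of cells, each cell was thinned at random to the same number of UMIs, a common depth that left out 178 and 224 shallower cells and kept 2326 at E12.5 and 2323 at E13.5. A Sycp1 UMI was then found in 27.2% of cells (25.4 to 29.0%) at E12.5 and 78.9% (77.2 to 80.5%) at E13.5, against 37.0% and 86.0% without thinning. Smc1b was found in 79.4% (77.7 to 81.0%) and 94.0% (93.0 to 94.9%), against 88.1% and 96.9% without thinning. Sycp2 was found in 8.77% (7.65 to 9.99%) and 24.9% (23.2 to 26.7%), unthinned 12.9% and 34.7%. These 3 genes had the widest differences in share between the libraries.

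The other 5 shares lay closer together. Sycp3 was found in 49.3% (47.2 to 51.3%) of cells at E12.5 and 53.3% (51.2 to 55.3%) at E13.5, unthinned 64.5% and 67.3%. Hormad1 was found in 40.4% (38.4 to 42.4%) and 44.6% (42.5 to 46.6%), unthinned 54.7% and 56.3%. Hormad2 was found in 12.2% (10.9 to 13.6%) and 21.01% (19.4 to 22.7%), unthinned 18.8% and 29.8%. Their direction was the same as for CPM, as it was for the remaining pair. Rec8 was found in 4.82% (3.98 to 5.77%) and 7.28% (6.25 to 8.41%), unthinned 7.67% and 10.1%. Stag3 was found in 51.1% (49.1 to 53.2%) and 44.6% (42.5 to 46.6%), unthinned 67.3% and 59.0%.

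The background of free RNA was read in the Sertoli-like cells of each library, and these were few. The 25 at E13.5 (293042 UMIs, median 10797 per cell) held 1 UMI of Smc1b and 0 of the other 7 members, and a count of 0 there allows up to 10.2 CPM. Rec8 in germ-like cells lay under that limit at E13.5, at 4.87 CPM, and the other 7 members lay above it. The 4 at E12.5 (73376 UMIs, median 17000.5) held 1 UMI each of Smc1b and Sycp1, 13.6 CPM, and a count of 0 allows up to 40.9 CPM. Sycp2, Hormad1, Hormad2 and Rec8 lay under that limit at E12.5. Sycp1, at 26.3 CPM, lay under the 75.9 CPM that the exact interval of 1 UMI allows. The exact interval of a count of 0 reaches 50.3 CPM, a value inside the germ-like intervals of Sycp3 and Stag3. The E12.5 levels of all these genes could thus not be set apart from free RNA by this check. At 2000 UMIs per cell, 0 of the 25 Sertoli-like cells of E13.5 had a UMI of any member, which allows a share of up to 12%. At that depth Smc1b was found in 40.0% and Sycp1 in 28.3% of the E13.5 germ-like cells, and the other 6 members, between 1.02% and 10.8%, were under that limit. An unnamed cluster of low-UMI barcodes held more. It was left unnamed because its UMIs were few and no germ marker was among its leading genes. Germ markers nevertheless took a median of 0.668% of UMIs in its barcodes of both libraries. Its 97 barcodes at E13.5 (341150 UMIs) ran from 5.86 CPM of Rec8 to 235 CPM of Smc1b, with Sycp1 at 138 CPM. Whether these barcodes hold free RNA or cells with few UMIs was not tested.

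Among the members, the variance of counts per cell over their mean was highest for Smc1b at E12.5 and for Sycp1 at E13.5. This quotient was not adjusted for the level of a gene. At the common depth the variance of Sycp1 counts was 1.63 times the mean at E12.5 and 2.33 times at E13.5, where 1 would be Poisson. A single Poisson mean would have placed a Sycp1 UMI in 92.9% of E13.5 cells, and 78.9% had one. At E13.5, 59.9% of cells had at least 2 Sycp1 UMIs and 19.8% at least 5, with a highest value of 16. Smc1b had a variance of 1.73 times the mean at E12.5 and 1.85 times at E13.5. The other 6 members lay between 1.05 (Hormad2) and 1.27 (Rec8) at E12.5 and between 1.02 (Rec8) and 1.25 (Sycp3) at E13.5.

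**Figure D2:**
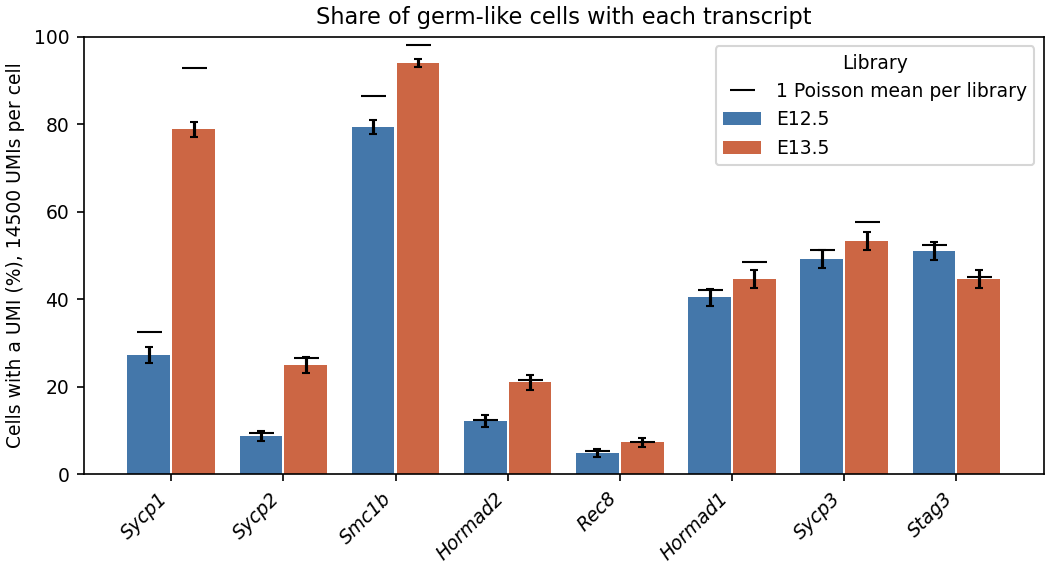
Share of germ-like cells with at least 1 UMI of each member after thinning to the common depth, in percent, with exact binomial 95% intervals; the short lines give the share that 1 Poisson mean per library would give. Sycp1 goes from 27.2% to 78.9% and lies farthest under its Poisson line at E13.5.

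Germ-like cells at E13.5 held more of the 8 transcripts each. The mean number of members seen per thinned cell was 2.73 (SD 1.26 over cells) at E12.5 and 3.69 (SD 1.20) at E13.5. Cells with no member numbered 71 (3.05%, 2.39 to 3.83%) at E12.5 and 2 (0.0861%, 0.0104 to 0.311%) at E13.5. Cells with 5 or more members numbered 197 (8.47%) and 577 (24.8%). A single cell, at E12.5, held all 8, and 0 of 2323 did at E13.5, which allows up to 0.129%. If the members were independent of each other, their shares alone would give SDs of 1.16 and 1.18 in the same order, and 1.69% of E12.5 cells at no member with 6.19% at 5 or more. The E12.5 cells were thus spread somewhat wider than the shares alone give, and the E13.5 cells nearly as they give, at 24.0% for 5 or more members.

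**Figure D3:**
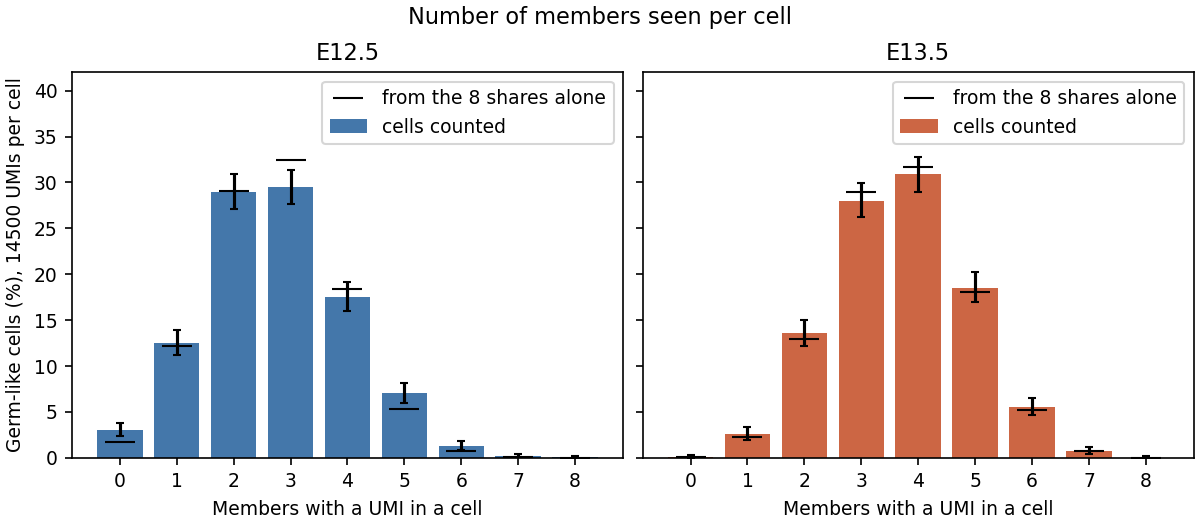
Number of members with a UMI per germ-like cell thinned to the common depth, as percent of cells in each library, with exact binomial 95% intervals; short lines give the percent expected from the 8 shares alone. The E12.5 bars stand above the lines at 0 and at 5 members, and the E13.5 bars lie near them.

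Pairs of members were seen together about as often as their shares give. Over the 28 pairs, cells with both divided by the product of the shares had a median of 1.05 at E12.5 (0.969 to 1.43, 24 pairs above 1) and 0.999 at E13.5 (0.770 to 1.11, 14 pairs above 1). This quotient cannot exceed 1 divided by the larger share of the pair. Pairs with a common member, such as Smc1b in 94.0% of E13.5 cells, are thus held near 1 from above. Since the shares differ between the libraries, a lower quotient at E13.5 is not read as a loss of co-detection. The highest pair at E12.5 was Sycp2 with Rec8, at 1.43, from only 14 cells. Sycp2 with Hormad2 was at 1.33 (33 cells), Sycp1 with Rec8 at 1.28 (39 cells) and Sycp1 with Sycp2 at 1.21 (67 cells). At E13.5 the highest pairs were Sycp2 with Sycp3, at 1.11 (342 cells), then Sycp2 with Rec8, at 1.09 (46 cells), and Sycp1 with Sycp2, at 1.09 (496 cells).

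The lowest pair at E13.5 was Hormad1 with Rec8, seen in 58 cells where the shares give 75.3, a quotient of 0.770. All 3 Sycp genes were seen together in 44 cells (1.89%, 1.38 to 2.53%) at E12.5, where the shares give 1.17%. At E13.5 they were together in 299 cells (12.9%, 11.5 to 14.3%), where the shares give 10.5%. The 3 meiotic cohesin genes were together in 56 cells (2.41%, 1.82 to 3.12%) at E12.5 and 64 (2.76%, 2.13 to 3.505%) at E13.5, where the shares give 1.95% and 3.05%. The Sycp genes thus shared cells somewhat more than their shares give in both libraries, and the cohesin genes did not do so at E13.5. Spearman's rho between the thinned counts of 2 members ran from -0.0098 to 0.131 at E12.5 and from -0.0686 to 0.183 at E13.5, over cells that share a library, so that each of these relations was weak.

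**Figure D4:**
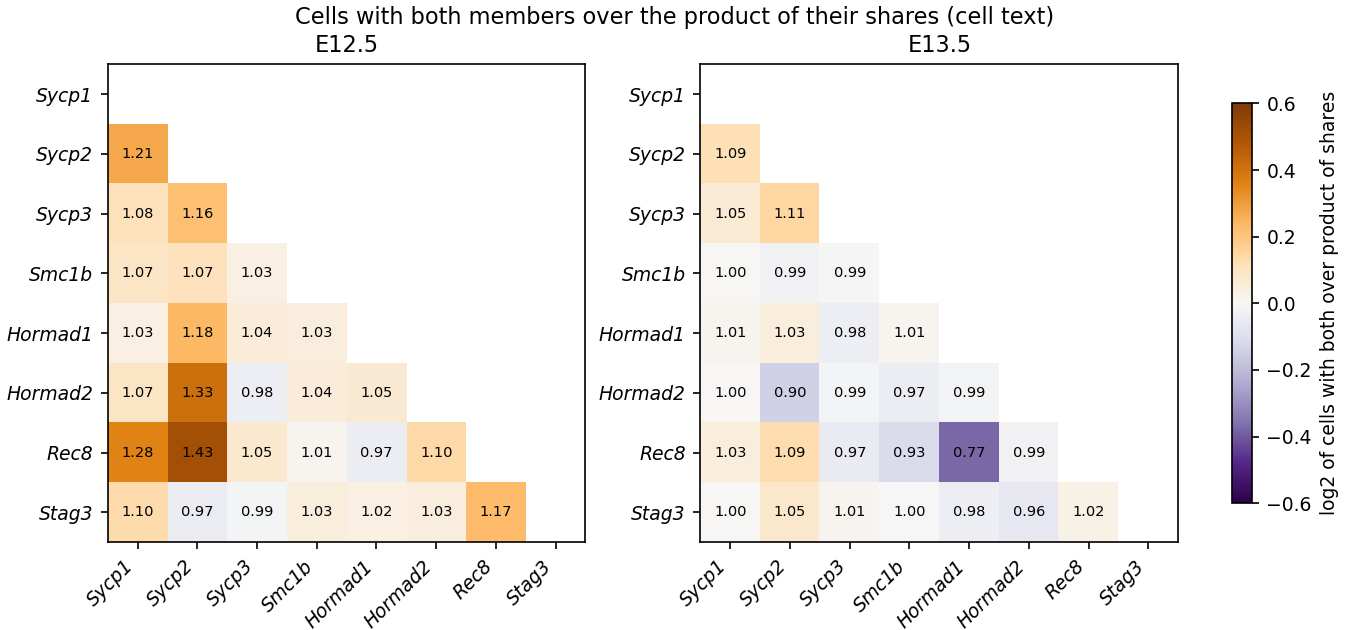
Cells with both members of a pair divided by the number that the product of their shares gives, for each library, with the quotient written in each square and its log2 as colour. Hormad1 with Rec8 at E13.5 is the lowest square, at 0.770, and Sycp2 with Rec8 at E12.5 the highest, at 1.43.

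The members were next read along the proliferation of the cells. Within each library, germ-like cells were ranked by the share of their UMIs from 30 proliferation genes and split into low, middle and high ranges of 835, 835 and 834 cells at E12.5 and of 849 each at E13.5. These are ranges of a score and not cell types. Within 10% of the 2 limits lay 976 and 986 cells at E12.5, and 144 and 527 at E13.5. The median share was 0.480%, 0.570% and 0.677% in the low, middle and high ranges at E12.5 and 0.205%, 0.471% and 0.655% at E13.5. At E13.5 the low range also had fewer UMIs per cell (median 19613, against 25334 in the high range) and a higher mitochondrial share (5.13%, against 4.30%), whose part in the values below was not tested.

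Rec8 at E13.5 was concentrated in the cells with the fewest proliferation transcripts. It stood at 10.2 CPM (8.75 to 11.8) in the low range, 3.76 CPM (2.94 to 4.73) in the middle and 1.56 CPM (1.08 to 2.17) in the high range, so that low was 6.55-fold above high (4.52 to 9.75). The low range held 179 of its 285 UMIs. A Rec8 UMI was found in 14.4% (11.99 to 17.1%), 5.61% (4.09 to 7.49%) and 2.12% (1.24 to 3.38%) of thinned cells. As a part of Rec8 and Rad21 UMIs, Rec8 made up 10.8%, 2.90% and 1.18% in the same order. The part of free RNA in these values was not tested.

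Hormad1 and Smc1b ran the other way. Hormad1 stood at 22.1, 47.3 and 68.0 CPM in the low, middle and high ranges of E13.5, with high 3.07-fold above low (2.75 to 3.44), and in 26.3%, 46.1% and 60.3% of thinned cells. Smc1b stood at 191, 274 and 359 CPM, with high 1.88-fold above low (1.81 to 1.96). Smc1b nevertheless remained the larger part of the SMC pair in every range, at 59.7%, 66.5% and 65.1% of Smc1b and Smc1a UMIs.

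Sycp1 was lowest in the middle range at E13.5, at 209, 143 and 202 CPM, and was found in 88.1%, 71.0% and 77.8% of thinned cells. Sycp2 had the same shape, at 22.8, 16.02 and 24.7 CPM. Sycp3 was highest in the low range, at 71.3, 49.4 and 54.7 CPM, and its intervals in the middle and high ranges overlapped. Hormad2 stood at 19.9, 14.5 and 15.5 CPM. Stag3 varied least, at 38.2, 44.5 and 42.6 CPM. Comparing high with low, 2 of 8 members (Hormad1 and Smc1b) were at least 1.5-fold higher and 1 (Rec8) lower, against 12.1% higher and 16.4% lower among 13692 genes with 3 or more UMIs in both ranges.

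At E12.5 the differences between the high and low ranges were mostly under 1.5-fold. Sycp2 alone passed 1.5-fold, at 4.70, 5.53 and 8.76 CPM, with high 1.86-fold above low (1.44 to 2.43). That makes 1 of 8 higher and 0 lower, against 6.75% higher and 6.11% lower among the 13692 genes with a value there. Rec8 stood at 4.28, 3.92 and 3.15 CPM and Hormad1 at 33.6, 38.6 and 39.4 CPM. High was above low by 1.33-fold for Hormad2 (1.07 to 1.65), 1.19-fold for Sycp1 (1.05 to 1.34) and 1.17-fold for Hormad1 (1.06 to 1.30). The intervals of Sycp3, Smc1b, Rec8 and Stag3 held 1. The proliferation share was itself spread less at E12.5 than at E13.5, so the ranges of the 2 libraries are not matched.

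Set side by side, ranges of the same name in the 2 libraries gave different ratios of E13.5 over E12.5. These ranges hold unlike cells: the low range had a median proliferation share of 0.480% at E12.5 and 0.205% at E13.5. The ratios are thus not stage differences at equal proliferation. Rec8 was 2.38-fold higher (1.82 to 3.13) in the low range, at a ratio of 0.958 (0.686 to 1.34) in the middle and at 0.495 (0.317 to 0.760) in the high range. Hormad1 was at 0.659 (0.580 to 0.749), 1.22 (1.11 to 1.35) and 1.72 (1.58 to 1.88). Sycp1 was higher in all 3, at 8.74, 5.39 and 7.12, as was Smc1b, at 1.44, 1.97 and 2.60. Over all cells Rec8 and Hormad1 had ratios of 1.29 and 1.27, while in the low and high ranges each lay on opposite sides of 1.

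**Figure D5:**
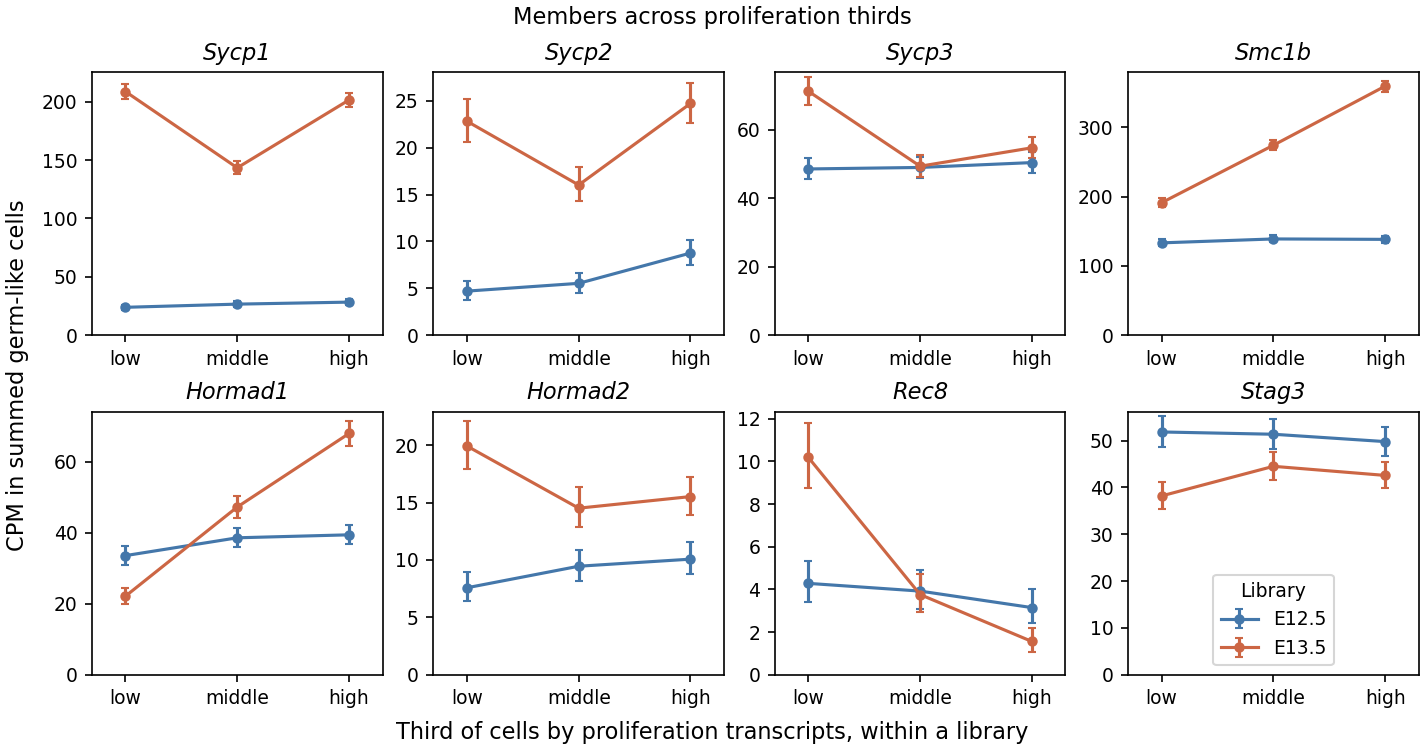
Level of each member in CPM (vertical axes from 0, scaled per gene) in cells of low, middle and high proliferation share, ranked within each library, with exact Poisson 95% intervals. At E13.5 Rec8 goes from 10.2 CPM in the low range to 1.56 CPM in the high range and Hormad1 from 22.1 to 68.0 CPM. At E12.5 only Sycp2 differs by 1.5-fold or more between the high and low ranges.

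Cells with a UMI of Stra8, the gatekeeper of meiotic entry, numbered 97 of 2326 thinned cells at E12.5. They held 3.38 members each (SD 1.38), against 2.70 (SD 1.25) in the other 2229. Rec8 was found in 18.6% (11.4 to 27.7%) of them and in 4.22% (3.42 to 5.14%) of the others. Sycp3 was found in 67.0% (56.7 to 76.2%) against 48.5% (46.4 to 50.6%), and Sycp1 in 41.2% (31.3 to 51.7%) against 26.6% (24.7 to 28.4%). Hormad2, at 10.3% against 12.2%, and Stag3, at 52.6% against 51.1%, were close. Mki67, a proliferation gene, was found in 85.6% and 88.8%. At E13.5 only 54 cells had a Stra8 UMI, and they held 3.93 members against 3.68, with Rec8 in 11.1% (4.19 to 22.6%) against 7.18% (6.16 to 8.32%).

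Nanos2 UMIs were found in 625 of 2323 thinned cells at E13.5 and in 11 at E12.5, too few to describe. At E13.5 the cells with Nanos2 held 3.87 members (SD 1.16) and the others 3.62 (SD 1.21). Sycp1 was found in 89.9% (87.3 to 92.2%) against 74.9% (72.7 to 76.9%), and Rec8 in 11.5% (9.12 to 14.3%) against 5.71% (4.66 to 6.92%). Sycp3, at 59.8% against 50.9%, and Sycp2, at 29.9% against 23.1%, leaned the same way. Hormad1 leaned the other way, at 36.2% (32.4 to 40.1%) against 47.6% (45.2 to 50.1%), as did Smc1b, at 91.2% (88.7 to 93.3%) against 95.1% (93.9 to 96.0%). Stag3 was at 44.96% and 44.4%. Mki67 was found in 41.6% of cells with Nanos2 and 67.4% of the others, so this division runs along with proliferation, and their parts were not separated.

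Clusters of germ-like cells, built from variable genes with members among the candidates, are given as description only. The highest Rec8 level at E12.5, 17.9 CPM, was in cluster 10, led by Stra8 (117 cells). That cluster also had 87.6 CPM of Sycp3, 210 CPM of Smc1b, 76.4 CPM of Stag3 and 44.7 CPM of Sycp1. The other 4 clusters of that library lay between 1.38 and 3.38 CPM of Rec8 and between 42.2 and 53.2 CPM of Stag3. At E13.5, cluster 4, led by Nanos2 (504 cells), had the highest Rec8, 12.4 CPM, and the highest Sycp1, 249 CPM, together with the lowest Smc1b, 170 CPM, and the lowest Hormad1, 18.6 CPM. Cluster 5, led by Tuba3b and with Sycp1 among its leading genes (482 cells), had nearly as much Sycp1, 239 CPM. Its Mki67 was the highest of the library, 165 CPM, against 9.72 CPM in cluster 4. Cluster 6, led by histone genes, had the lowest Sycp1 of the library, 68.7 CPM, and cluster 8, led by histone genes and Tuba3b, the highest Smc1b, 452 CPM, and Hormad1, 83.6 CPM.

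Other genes of the meiotic chromosome were read from a list of 44 symbols, of which 31 had a ratio. Over all 15159 genes with 3 or more UMIs in each library, 18.4% were at least 1.5-fold higher at E13.5 and 17.5% lower. On the list, 16 genes reached 10 CPM in at least 1 library. At least 1.5-fold, 10 of the 31 were higher at E13.5, 1 was lower and 20 lay between, with a median log2 ratio of 0.30. The highest ratios were those of the crossover factor Rnf212 (0.151 and 1.47 CPM, 9.74-fold) and of Ankrd31, which acts in double-strand break formation (0.871 and 5.04 CPM, 5.78-fold). The lowest were those of the strand exchange gene Dmc1 (4.89 and 2.94 CPM) and its cofactor Psmc3ip (54.6 and 38.7 CPM). The most abundant was the central element gene Syce2, at 309 and 251 CPM, above every member in the E12.5 library.

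The counts of the next 3 lists stand beside shares of 18.4% higher and 17.5% lower over the 15159 genes with a ratio. Among 14 meiotic entry regulators with a ratio, 0 were at least 1.5-fold higher, 6 were lower and 8 lay between. Stra8 was at 6.57 and 2.34 CPM and Msx2 at 10.4 and 1.49 CPM. Dazl, the most abundant, was at 802 and 1171 CPM, and Rara, a retinoic acid receptor, at 17.2 and 25.2 CPM. Of 15 genes of PRC1.6, the complex that silences germline genes through MGA, MAX and E2F6, 1 was higher (Ring1, 11.8 and 26.9 CPM), 0 were lower and 14 lay between. Max was at 49.2 and 69.5 CPM, Cbx1 at 256 and 289 CPM, Rybp at 17.9 and 14.8 CPM and Hdac1 at 144 and 102 CPM. Of 10 male germline genes, 7 were higher and 2 lower, with Nanos2 at 0.335 and 25.9 CPM, Piwil4 at 1.24 and 3.16 CPM, Lefty2 at 236 and 95.5 CPM and Nodal at 11.8 and 6.86 CPM.

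The genes whose counts went most with the number of members seen were sought over 2323 thinned E13.5 cells and 7633 genes, by Spearman's rho. They were Malat1, a nuclear RNA (0.187), 4930447C04Rik, which is on the list of other meiotic chromosome genes (0.175), Mael, a piRNA pathway gene on that list and among the germ markers (0.167), Egr4, a transcription factor gene (0.154), and Taf7l, a TFIID subunit gene (0.151). At E12.5 the first 3 had values of 0.0847, 0.106 and 0.107. The lowest E13.5 value was that of Dppa5a, at -0.184. All of these are weak, are taken over cells of 1 library and were not tested.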

How the data were processed

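Male germ cells sorted for Oct4GFP were profiled with 10x v2 libraries, 1 per stage, per the labels' protocols. Each deposited table gives unnormalised UMI counts, with genes against barcodes. Per the submitters' processing notes, Cell Ranger (no version given) and the build mm10 or GRCm38 were used, and the annotation and strand setting are not given in the sources used here. A gene seen in too few barcodes can be missing from a table, so a missing gene was given no ratio.

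Barcodes with at least 500 genes and under 10% mitochondrial UMIs were kept (2621 of 2847 at E12.5, 2670 of 2992 at E13.5). Clusters over both libraries came from scanpy 1.11.5 with leidenalg 0.10.2 (on 2000 variable genes, 30 components, 15 neighbours, resolution 1). They were named from marker lists, germ cells from 13 genes (Ddx4, Dazl and Pou5f1 among them) and Sertoli cells from 10 (Amh, Cst9 and Aard among them). A cluster of 110 and 97 low-UMI barcodes stayed unnamed, by a rule for clusters with few UMIs and no germ marker among their leading genes. Barcodes with at least 0.5% of UMIs from a somatic or blood list were left out of the germ-like class (3 and 1), which was decided after the data had been seen. Scrublet called 65 and 27 doublets, which were kept. Germ-like cells were summed within a library and given as CPM. Levels have exact Poisson, shares exact binomial (Clopper-Pearson) and ratios exact conditional binomial 95% intervals (scipy 1.17.1). A ratio needed 3 or more UMIs in each library. Each cell was thinned without replacement to 14500 UMIs for shares and for counts of members per cell. The interval code was tested on simulated data.

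The members, lists and rules were chosen with earlier results of these data known. The named genes were the 8 members, the 2 highest and 2 lowest ratios and the most abundant gene of each other list, Stra8, Nanos2, Smc1a, Smc3, Rad21, Stag1 and Stag2, and the 5 genes of highest rho. A gene that this rule names is not reported here. Genes named for clusters, markers or the lowest rho were chosen after their values were seen. Alternatives were TMM factors (edgeR 4.0.16), another denominator, other cell and level filters, a rule of 3 germ markers per barcode, no doublets, no barcodes shared by the libraries (chosen after seeing the data), equal weight per cell, and other thinning.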

Additional observations from a re-analysis of the deposited data

How the results depend on the processing

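Over 64 alternative values of the members' log2 ratios (8 members, with TMM factors, another denominator, all barcodes, a stricter cell filter, a germ marker rule, no doublets, no shared barcodes or equal weight per cell), 0 changed direction. They ran from 2.77 to 2.85 for Sycp1, 1.71 to 1.78 for Sycp2, 0.22 to 0.27 for Sycp3, 0.96 to 1.13 for Smc1b, 0.28 to 0.49 for Hormad1, 0.82 to 0.91 for Hormad2, 0.05 to 0.41 for Rec8 and -0.32 to -0.24 for Stag3. The widest move, 0.32 for Rec8, came with the stricter cell filter, and the cause was not tested. That filter asks for under 5% mitochondrial UMIs. The low proliferation range of E13.5, which held 179 of 285 Rec8 UMIs, had a median of 5.13%, so many of its cells were left out. The count of 4 higher members was found under each of these settings. It was 2 when members at 50 CPM or more were counted, since Sycp2 and Hormad2 are below that level. A minimum of 10 CPM in either library leaves the count at 4 by construction, as these 2 genes pass it through the E13.5 library.

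The mean number of members seen per cell depends on depth by construction: after thinning to 2000 UMIs it was 0.583 (E12.5) and 1.03 (E13.5), and with no thinning 3.51 and 4.40. The median quotient of cells with both members over the product of shares lay between 1.05 and 1.13 at E12.5 and between 0.999 and 1.07 at E13.5. No paired analysis was possible because each stage has 1 library. With 1 library per stage, no interval covers variation between embryos or between libraries, and levels near those of Rec8 are limited by depth.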
